A study of Rattus norvegicus with 4 samples.

Results

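Water channels and the beta subunits of the sodium pump were followed in rat myometrium, the muscular layer of the uterus, through the 5 aquaporins Aqp1, Aqp2, Aqp3, Aqp4 and Aqp5 and the 2 pump subunits Atp1b1 and Atp1b2. A probe set is a group of short oligonucleotides read as 1 signal, and some probe sets may match several transcripts. The members were all probe sets for which the platform annotation gives one of these 7 symbols and no other. That rule found 13 of the 8740 probe sets compared, 7 for aquaporins and 6 for pump subunits, and the 7 genes stand among 4736 named on the array. Rats aged 60 days whose ovaries had been removed a week before received estradiol benzoate, an ester of estradiol, under the skin at a dose of 10 µg per kg, or vehicle. Uterine horns were taken 6 or 24 h later, and the myometrium was separated and frozen. The 4 groups were estradiol at 6 h, control at 6 h, estradiol at 24 h and control at 24 h, and each is 1 array of RNA pooled from 6 animals. All groups therefore share the loss of the ovaries, no group has replicate error, and animals cannot be told apart within a pool.

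Aquaporins are membrane channels that let water follow osmotic gradients, and Aqp3 also passes glycerol. The sodium pump exchanges sodium for potassium at the cost of ATP and sets the gradients on which cell volume, membrane potential and much water movement depend. Its alpha subunit carries the ion transport, and the beta subunit brings it to the membrane. The uterus of rodents takes up water after estrogen, and in smooth muscle the pump keeps the resting potential from which contraction starts.

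Signals are in array units at a common trimmed mean of 500, and the floor of an array, the 40th percentile of its signals, lay between 89.5 and 108. Medians of the arrays lay between 144 and 169. Per the file headers the arrays of each time share a scan day that differs between the times, so the effects of time and of scan day cannot be told apart. The fluidics log of the 24 h control array breaks off during washing. Estrogen targets went against the labels at 6 h. Igf1, a growth factor, read 704 with the estradiol label and 7872 with the control label at 6 h, but at 24 h 5182 with estradiol against 665 in the control. Pgr, S100g and Hsd11b2, known estrogen targets in the rat uterus, were also lower with the estradiol label at 6 h and higher with estradiol at 24 h. Directions at 6 h are therefore those of the arrays as labelled. All 7 smooth muscle markers on the array were above the floor, with a summed signal between 61611 and 95652, and 0 of them reached 2-fold within either time.

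The beta 1 subunit of the pump differed most among the members and Aqp1 came next. Atp1b1 was 5.86-fold and 4.60-fold higher on the array labelled estradiol at 6 h by its 2 probe sets above the floor. At 24 h the same 2 probe sets went opposite ways. Aqp1 was 2.27-fold lower with estradiol at 24 h and 1.11-fold higher with the estradiol label at 6 h. No probe set of Aqp2, Aqp3, Aqp5 or Atp1b2 passed the 2-fold rule at either time, but some of their folds are lower bounds and could be larger, and Aqp4 was at the floor on every array.

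**Figure D1:**
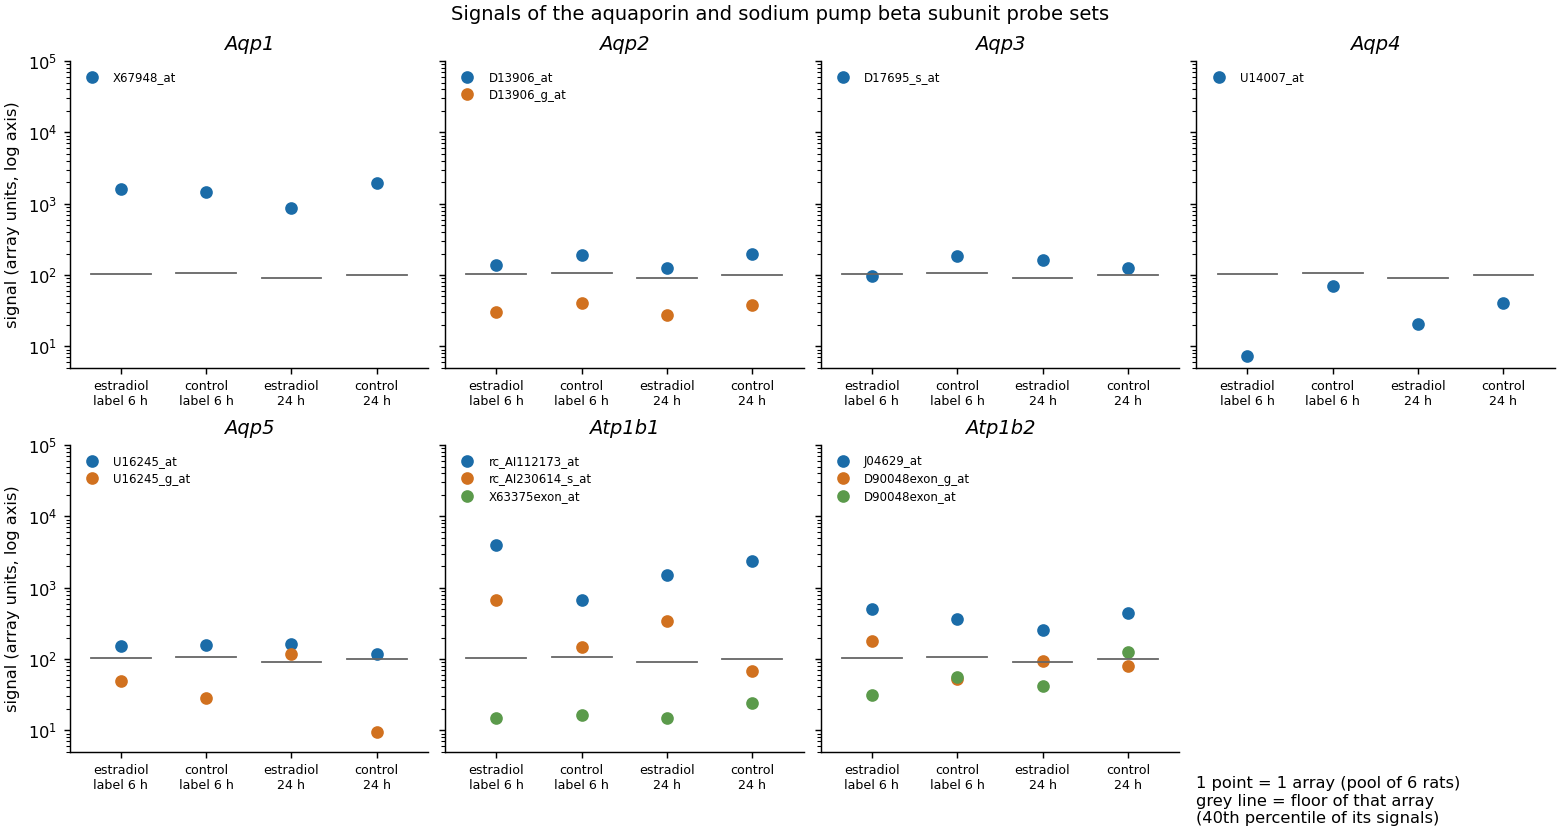
Signal of every member probe set on the 4 arrays on a log axis, 1 panel per gene, with each array's floor as a grey line. Both Atp1b1 probe sets above the floor are highest on the array labelled estradiol at 6 h, Aqp1 is lowest with estradiol at 24 h, and the Aqp4 points lie under the floor on all 4 arrays.

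Of the 13 member probe sets 5 were above the floor on all 4 arrays, 2 on 3 arrays, 1 on 2 arrays, 2 on 1 array and 3 on none. The 3 at the floor throughout were the Aqp4 probe set, D13906_g_at of Aqp2 and X63375exon_at of Atp1b1. The rule for a difference was a log2 value of 1 or more in size, which is 2-fold, with the brighter array above its floor. Where the dimmer array was at its floor the fold is a lower bound, written as at least N-fold. At 24 h 2 of the 10 member probe sets above the floor on at least 1 array passed this rule, 1 higher and 1 lower with estradiol, against 16.7% of all 6157 such probe sets, made of 8.3% higher and 8.36% lower. At 6 h 2 of the 10 passed it, both higher with the estradiol label, against 12.3% of all, with 6.94% higher and 5.38% lower. Counts this small do not separate the members from the rest. The median log2 difference over the 10 was -0.29 at 24 h and 0.05 at 6 h. Over all probe sets above the floor on at least 1 array it was -0.17 and -0.07. Those medians lie at or near the log2 ratio of the floors, -0.17 at 24 h and -0.08 at 6 h. They do not measure a shift of signals.

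**Figure D2:**
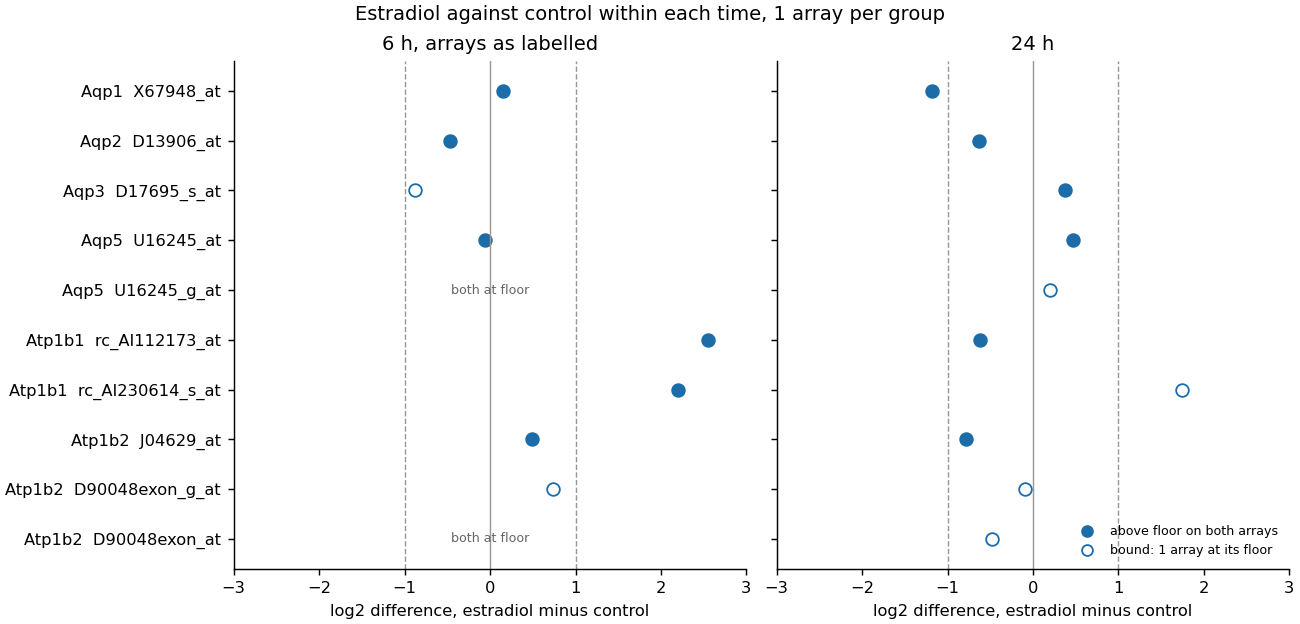
Log2 difference of estradiol minus control for the 10 member probe sets above the floor on at least 1 array, at 6 h as labelled and at 24 h, with dashed lines at 2-fold and open points for bounds. At 6 h both Atp1b1 probe sets lie beyond 2, and at 24 h one lies at -0.62 and the other at 1.75. The point of D90048exon_g_at at 24 h is set by the control's floor.

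Among the aquaporins, Aqp1 forms a constitutively open water channel, well known from red blood cells and the endothelium of small vessels. Its probe set X67948_at read 1629 with the estradiol label and 1471 with the control label at 6 h. At 24 h it read 858 with estradiol and 1944 in the control. The estradiol array at 24 h was thus the lowest of the 4, and the other 3 lay within 1.32-fold of each other. The log2 difference at 24 h was -1.18, and 5.36% of all probe sets above the floor were at least as far lower. Against the control at 6 h, an alternative added after the values were known, the estradiol array at 24 h was 1.72-fold lower, which is under the 2-fold rule. Against the mean of both controls it was 1.97-fold lower, so Aqp1 also misses the rule there. At 6 h the log2 difference was 0.15.

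Markers of vessels and blood were measured beside Aqp1. All 4 endothelial markers on the array were lower with estradiol at 24 h, summing to 761 with estradiol against 1348 in the control. One of them passed the rule, the growth factor receptor Flt1, which was 2.01-fold lower, at 169 with estradiol against 340 in the control. Over all genes 8.04% were lower and 8.68% higher by the rule at 24 h, so 1 of 4 does not set the list apart. Pecam1, an adhesion molecule of endothelium, read 368 with estradiol against 550 in the control at 24 h. At 6 h the summed endothelial signal was 1044 with the estradiol label and 1325 with the control label. The difference was carried by the receptor Kdr, which read 184 with the estradiol label and 705 with the control label. The other 3 were higher with the estradiol label. Kdr passed the rule at 3.83-fold lower and 0 passed it upwards, against 5.08% of genes lower and 6.47% higher. The 3 red blood cell markers summed to 9273 with estradiol against 13201 in the control at 24 h, a sum made up mostly of the globin gene Hbb, while Alas2 and Slc4a1 were higher with estradiol by log2 differences of 0.30 and 0.17. At 6 h, where Aqp1 was slightly higher with the estradiol label, the sum was 6311 with that label and 10197 with the control label. The part of vessels or blood in the Aqp1 difference was not tested. In pooled tissue, fewer cells of a type and less RNA per cell cannot be told apart.

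**Figure D3:**
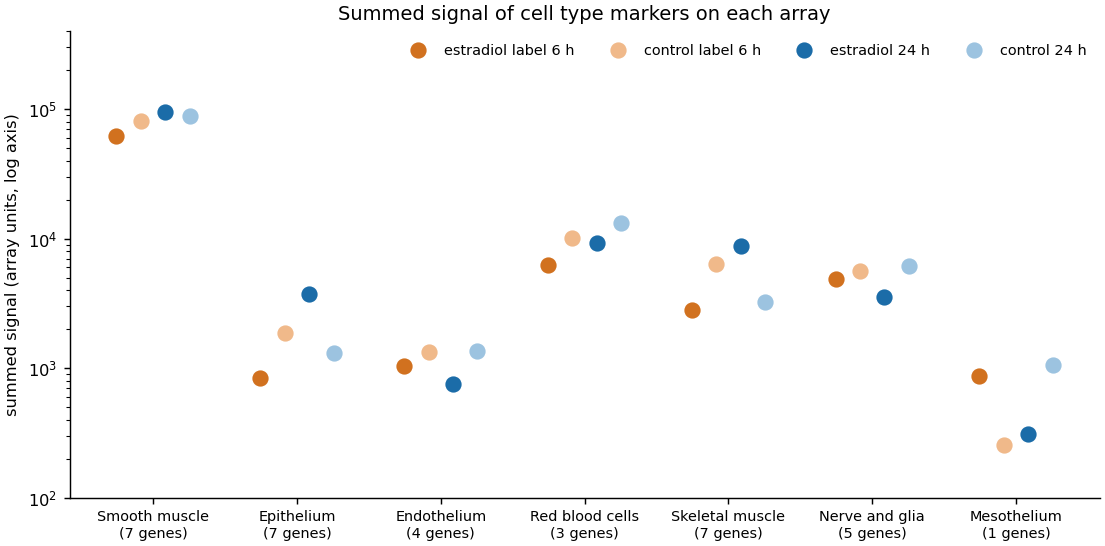
Summed signal of the markers of 7 cell types on each array, on a log axis, with the number of genes summed under each name. The endothelial sum is lowest with estradiol at 24 h, at 761, and the epithelial sum is highest there, at 3761.

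The 250 bases before the Aqp1 start are shown because Aqp1 was the aquaporin past the rule, and those of Aqp5 because they alone among the windows found held an arm of the estrogen response element. Both are RefSeq sequence of the GRCr8 build on the plus strand, chr4:85812534-85812783 for Aqp1 and chr7:132601278-132601527 for Aqp5. Capitals mark GGTCA, on either strand, and the TATA box TATAAA on the printed strand.
Aqp1: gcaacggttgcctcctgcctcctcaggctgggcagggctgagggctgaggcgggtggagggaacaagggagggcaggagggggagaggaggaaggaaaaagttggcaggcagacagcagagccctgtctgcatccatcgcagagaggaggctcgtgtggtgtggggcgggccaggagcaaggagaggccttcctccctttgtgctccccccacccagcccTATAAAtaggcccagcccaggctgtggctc
Aqp5: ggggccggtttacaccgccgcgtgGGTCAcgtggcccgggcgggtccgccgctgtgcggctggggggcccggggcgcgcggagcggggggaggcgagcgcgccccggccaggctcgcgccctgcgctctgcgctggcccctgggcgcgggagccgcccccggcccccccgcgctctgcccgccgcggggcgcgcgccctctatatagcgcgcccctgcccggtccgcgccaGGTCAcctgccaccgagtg
In Aqp1 the TATA box began 30 bases before the start, a motif that 8.06% of 33469 promoters of this length hold. In Aqp5 the matches to GGTCA began 226 and 19 bases before the start, and 35.4% of all promoters hold at least 1 on either strand. The whole palindrome GGTCANNNTGACC, searched on both strands, was in 0 of the 7 windows found for 6 of the 7 members and in 0.0239% of all promoters. Each whole palindrome holds both its arms, so the 2 searches overlap. Windows were found for Aqp1, Aqp2, Aqp3, Aqp4, which has 2, Aqp5 and Atp1b2.

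Aqp2, the channel that vasopressin inserts into the kidney's collecting duct, and Aqp5, a channel of gland and airway epithelium, have starts 11242 bases apart on chromosome 7 of GRCr8. Aqp2 by D13906_at read 140 with the estradiol label and 193 with the control label at 6 h, and 127 with estradiol against 197 in the control at 24 h. Both arrays labelled estradiol were below both controls, as for 14.2% of all probe sets above the floor when both controls must be above theirs, and no pair of arrays reached 2-fold. This order rests on the labels at 6 h, and with those exchanged the values overlap. The log2 differences were -0.46 at 6 h and -0.63 at 24 h, with 19.4% and 20.5% of all probe sets at least as far lower. Its other probe set, D13906_g_at, was between 27.2 and 40.4 and never above the floor. Aqp5 by U16245_at read 151 with the estradiol label and 157 with the control label at 6 h, and 160 with estradiol against 116 in the control at 24 h. The other 3 of its values, the control at 24 h aside, lay within 1.06-fold of each other, and the control at 24 h was 1.38-fold under the estradiol array of that time. Its probe set U16245_g_at was above the floor on 1 array, at 116 with estradiol at 24 h, against 9.40 in the control, which gives a bound of at least 1.15-fold higher. At 6 h it was at the floor on both arrays.

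Aqp3, which carries water and glycerol across epithelial membranes, read 96.6 on the array labelled estradiol at 6 h, where it was not above the floor, and 188 with the control label. At 24 h it read 165 with estradiol and 127 in the control. The difference was at least 1.83-fold lower with the estradiol label at 6 h and 1.30-fold higher with estradiol at 24 h. Neither passed the rule, and 7.11% and 20.3% of all probe sets were at least as far out in the same direction. Aqp4, the main water channel of astrocytes, read 7.24 with the estradiol label and 71.2 with the control label at 6 h, and 20.6 with estradiol against 40.2 in the control at 24 h. All 4 values are under the floor, so no fold is given.

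Aqp3 and Aqp5 are channels known from epithelia, and epithelial markers differed between the same arrays. The 7 epithelial markers on the array summed to 839 with the estradiol label and 1885 with the control label at 6 h, and to 3761 with estradiol against 1303 in the control at 24 h. At 24 h 5 of the 7 were at least 2-fold higher with estradiol, Krt8 by 4.84-fold, and 0 lower, against 8.68% higher and 8.04% lower over all genes. At 6 h 3 of the 7 were at least 2-fold lower with the estradiol label and 0 higher, against 5.08% and 6.47% of genes. Aqp3 had log2 differences of -0.87 at 6 h, a bound, and 0.37 at 24 h, and Aqp5 by U16245_at had -0.05 and 0.47. Aqp2 by D13906_at, the channel of the collecting duct, had -0.46 and -0.63, so it was lower at 24 h where most of these markers were higher. The part of epithelium in the Aqp2, Aqp3 and Aqp5 values was not tested.

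Of 5 further aquaporins on the array, all above the floor on at least 1 array, 0 passed the rule at 24 h, against 8.68% of 3619 genes higher and 8.04% lower when each gene is taken by its brightest probe set. At 6 h 1 was lower with the estradiol label and 0 higher, against 5.08% and 6.47% of genes. This was Aqp8, a channel for water and ammonia, with 53.1 on the array labelled estradiol, under the floor, and 247 with the control label, at least 2.41-fold lower. Aqp8 read 136 with estradiol and 62.7 in the 24 h control, a bound of at least 1.35-fold higher. Aqp6, Aqp7, Aqp9 and the lens channel Mip did not pass the rule at either time. The list median was 0.14 at 24 h and -0.62 at 6 h, beside -0.17 and -0.06 over all genes. The value of -0.17 is the log2 ratio of the floors at 24 h.

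Atp1b1 encodes the beta subunit that most tissues use. Its probe set rc_AI112173_at read 3918 with the estradiol label and 668 with the control label at 6 h. At 24 h it read 1526 with estradiol and 2353 in the control. The order from high to low was the estradiol label at 6 h, the control at 24 h, estradiol at 24 h and the control label at 6 h. The log2 difference was 2.55 at 6 h, and 15 of 6157 probe sets, this one included, were at least that much higher. At 24 h it was -0.62, which is 1.54-fold lower and under the rule. Wt1, the 1 gene on the array of 4 named as markers of mesothelium, had the same signs by the brightest of its 3 probe sets. It read 869 with the estradiol label and 256 with the control label at 6 h, and 308 with estradiol against 1059 in the control at 24 h. By the rule 119 probe sets, 1.93% of those above the floor, were higher at 6 h as labelled and lower at 24 h, 0 of them members. A single gene does not identify a cell type, and the part of mesothelium in the Atp1b1 values was not tested.

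The second probe set of Atp1b1, rc_AI230614_s_at, read 679 with the estradiol label and 148 with the control label at 6 h, and 338 with estradiol against 68.0 in the control at 24 h. The suffix _s_at marks probe sets whose probes may match several transcripts, and the only Aqp3 probe set, D17695_s_at, carries it too. The 24 h control was at its floor here, so the difference at 24 h is at least 3.35-fold higher with estradiol, and at 6 h it was 4.60-fold higher with the estradiol label. With this it was 1 of 32 probe sets, 0.520% of those above the floor, that passed the rule upwards under the estradiol label at both times. The count rests on the labels at 6 h, and 93 probe sets, 1.51%, were higher at 24 h and lower at 6 h as labelled, 0 of them members. The remaining probe set, X63375exon_at, lay between 14.8 and 24.2 on the 4 arrays, under every floor, so it reports no difference either way.

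The disagreement of the Atp1b1 probe sets lay in 1 array. Between any 2 of the other 3 arrays their log2 differences lay within 0.36 of each other. The estradiol array at 6 h as labelled exceeded the control of that time by 2.55 and 2.20, the estradiol array at 24 h lay at -1.36 and -1.005 against the estradiol array at 6 h, and at 1.19 and 1.20 against the control array at 6 h. In each comparison with the control at 24 h, where the second probe set is taken at the floor, the gap was over 2, with -0.62 and 1.75 for estradiol against control at 24 h. Over 1701 pairs of probe sets of 1 gene with signal at 24 h the median gap was 0.44, and 2.35% were as far apart as those of Atp1b1, at 2.37. At 6 h the Atp1b1 gap was 0.35 beside a median of 0.37 over 1632 pairs. The control array at 24 h is the one whose fluidics log breaks off, and the part of that in the gap was not tested. The 2 probe sets give no common direction for Atp1b1 at 24 h.

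**Figure D4:**
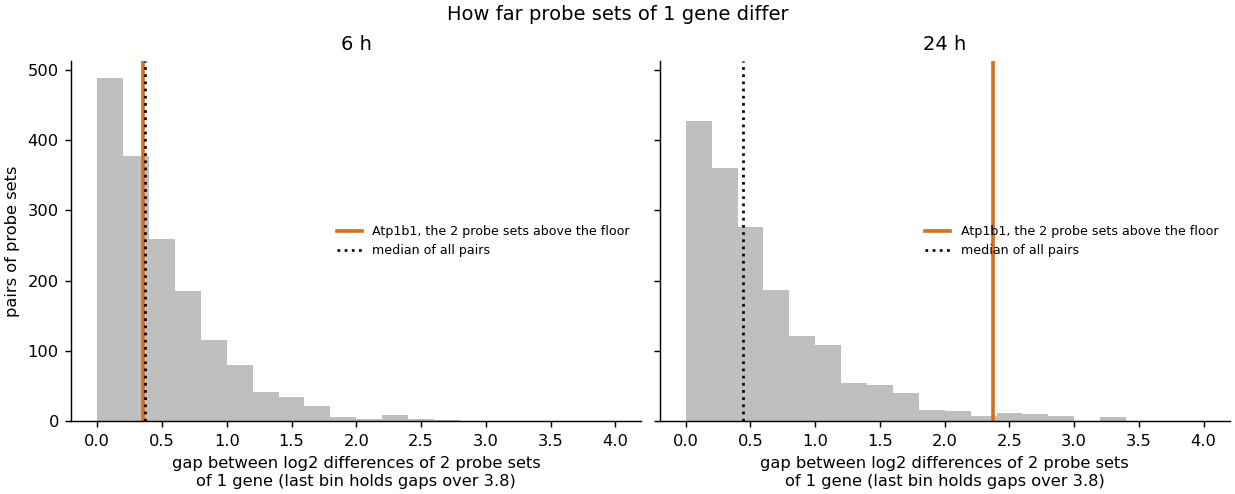
Histograms of the gap between the log2 differences, estradiol minus control, of probe sets of the same gene, at 6 h and 24 h, in pairs of probe sets. The Atp1b1 gap, drawn as an orange line, lies near the median at 6 h and far out in the tail at 24 h, at 2.37.

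Atp1b2 encodes the beta 2 subunit, also known as an adhesion molecule on glia. By J04629_at it read 510 with the estradiol label and 363 with the control label at 6 h, and 257 with estradiol against 441 in the control at 24 h. The log2 differences were 0.49 at 6 h and -0.78 at 24 h, both under the rule, and the widest gap, estradiol at 24 h against the array labelled estradiol at 6 h, was 1.99-fold. D90048exon_g_at read 181 with the estradiol label and 53.1 with the control label at 6 h, at least 1.67-fold higher, and 94.1 with estradiol against 79.7 in the control at 24 h. D90048exon_at was above the floor in the control at 24 h alone, at 125, against 41.6 with estradiol, at least 1.40-fold lower. The log2 difference of D90048exon_g_at at 24 h, -0.10, is set by the floor of the control and has no direction. The gaps between the 3 probe sets at 24 h, between 0.30 and 0.68, were matched or exceeded by 33.0% or more of all pairs.

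**Figure D5:**
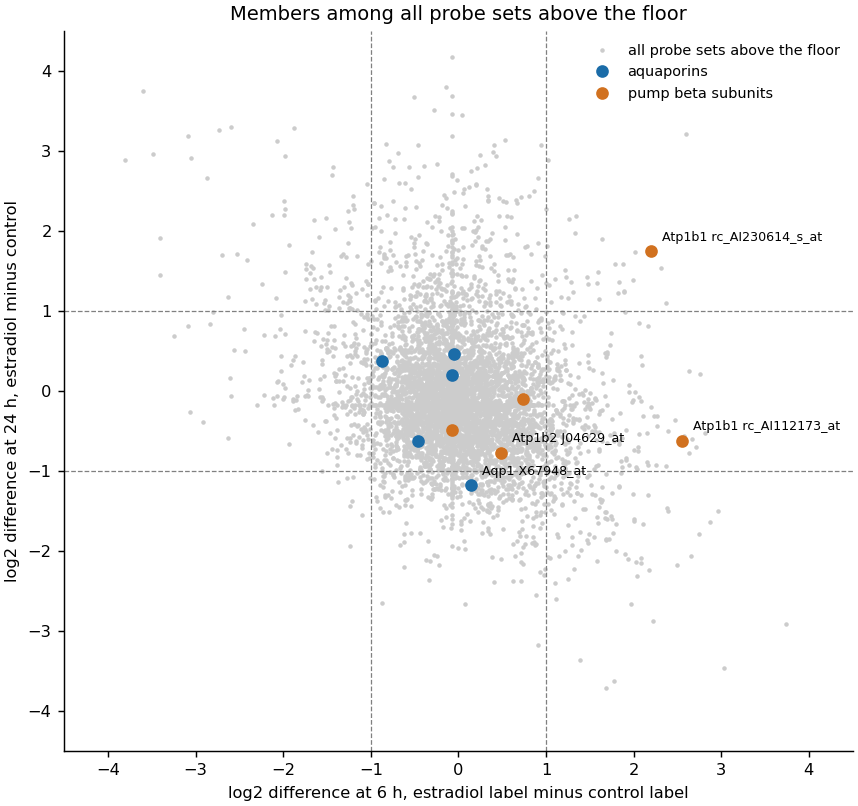
Log2 difference of estradiol minus control at 24 h against that at 6 h for the 6157 probe sets above the floor, with aquaporins in blue and pump beta subunits in orange and dashed lines at 2-fold. Both Atp1b1 probe sets stand at the right edge of the cloud and part on the vertical axis, and the other members lie inside it.

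Of the other sodium pump and related pump genes, 8 were on the array under a single symbol and 5 were above the floor on at least 1 array. At 24 h 0 of the 5 passed the rule, against 8.68% of genes higher and 8.04% lower. At 6 h 0 were higher and 1 was lower with the estradiol label, against 6.47% and 5.08% of genes, counts too small to set the list apart. The 1 was Atp1b3, the beta 3 subunit, which read 2342 with the estradiol label and 5305 with the control label, 2.27-fold lower. At 24 h Atp1b3 read 4252 with estradiol and 3082 in the control, 1.38-fold higher. The Atp1b1 probe sets and Atp1b3 thus passed the rule in opposite directions at 6 h. Fxyd1, phospholemman, a small regulator of the pump in muscle, had a log2 difference of 0.80 at 6 h and -0.95 at 24 h by its brighter probe set and 0.58 and 0.17 by the other. Atp1a4, a testis form of the alpha subunit, was at the floor on all arrays.

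Genes of salt and osmolyte transport and its control numbered 14 above the floor, with 1 higher and 0 lower at 24 h, against 8.68% and 8.04% of genes. At 6 h 1 was higher and 2 lower with the estradiol label, against 6.47% and 5.08%, so these counts do not set the list apart. Sgk1, a kinase that raises sodium transport in epithelia, read 251 with the estradiol label and 797 with the control label at 6 h, 3.18-fold lower, and 496 with estradiol against 224 in the control at 24 h, 2.21-fold higher. Slc6a6, the taurine transporter, read 597 with the estradiol label and 205 with the control label at 6 h, 2.91-fold higher, and was 1.20-fold higher with estradiol at 24 h. Slc12a3, the salt carrier of the distal kidney tubule, was at least 2.32-fold lower with the estradiol label at 6 h. At 24 h it was 1.14-fold lower with estradiol, at 91.6 against 104 in the control, just over floors of 89.5 and 101. Its other probe set was at the floor on every array. The list medians were -0.10 at 24 h and -0.30 at 6 h.

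Between times, the members were compared across scan days and on arrays used above. Between the controls 1 of the 10 member probe sets passed the rule, rc_AI112173_at of Atp1b1 at 3.52-fold higher at 24 h than at 6 h, against 17.9% of all, with 8.43% higher and 9.45% lower. Between the arrays labelled estradiol 2 passed it, both of Atp1b1 and both lower at 24 h than at 6 h, by 2.57-fold and 2.01-fold, against 15.3% of all, with 5.99% higher and 9.29% lower. The aquaporin farthest apart between the arrays labelled estradiol was Aqp1, 1.90-fold lower at 24 h.

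The genes nearest to Aqp1 and Atp1b1 over the 4 arrays were found by the distance between log2 signals centred on each gene's mean, among 2652 genes above the floor on all arrays. Nearest to Aqp1 were Pip4p1, at a distance of 0.09, and Plat, the tissue plasminogen activator, and Vps33a, both at 0.11. Plat read 1942 with the estradiol label and 1614 with the control label at 6 h, and 1014 with estradiol against 2138 in the control at 24 h. Nearest to rc_AI112173_at of Atp1b1 were Bckdha, a subunit of the enzyme that breaks down branched amino acids, at 0.22, Ppp2r3a, a phosphatase subunit, at 0.24 and Ndrg2 at 0.31. Ndrg2 read 3889 with the estradiol label and 629 with the control label at 6 h, and 1710 with estradiol against 2921 in the control at 24 h. The other members had a range under 2-fold or were at the floor on some array and were not matched. With 4 arrays many genes share a shape, and the distance is a description.

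The fit of both times together was the only test the 4 arrays allow. limma's lmFit and eBayes with treatment and time as terms and 1 residual degree of freedom called 0 of the 10 member probe sets and 0 of all 6157, which is 0%, at an adjusted p of 0.05 by Benjamini-Hochberg. The smallest adjusted p among the members was 0.999. At an unadjusted p of 0.05, 104 of 6157 probe sets, 1.69%, and 1 of the 10 members passed. That member was rc_AI230614_s_at of Atp1b1, with a log2 difference of 1.97 and an SE of 0.36 in limma's fit and an unadjusted p of 0.00499. Both arrays labelled estradiol were above both controls for it, as for 8.36% of all probe sets above the floor. With the 6 h labels exchanged its values overlap, and its 24 h control entered the fit at the floor. The brighter probe set of Atp1b1, rc_AI112173_at, had a log2 difference of 0.96 and an SE of 0.86 in the same fit and did not pass. The fit looks for a shift in the same direction at both times, and Igf1, Pgr, S100g and Hsd11b2 differed in opposite directions at the 2 times by the labels.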

How the data were processed

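Total RNA of myometrium was measured on 4 Affymetrix RG_U34A arrays, 1 per group. The probe set intensities are those the authors deposited, made with MAS5 per the submitters' processing notes, in a version and with settings not given in the sources used here. Each deposited column had a 2% trimmed mean of 500. Of 8799 probe sets 59 controls were left out. The platform annotation gives 7018 probe sets 1 symbol, 308 of them several and 1473 none. Lookup by gene identifier in RefSeq changed 0 symbols.

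Signals were scaled to the common trimmed mean, raised to each array's floor and turned to log2. Genes outside the members are taken by their brightest probe set. The 2-fold rule and limma 3.58.1 in R 4.3.3 were tested on simulated arrays. The number of arrays limits the precision. The members, the 3 pathway lists, the 7 marker lists and the likeness rule were chosen with earlier results of these data known. All members are named, and of the 3 pathway lists those past the rule, up to 6 per list. The markers named, Fxyd1, Atp1a4 and the aquaporins under the rule were named after their values were seen. Likeness names 3 genes per member whose range over the arrays reached 2-fold. The remaining marker lists were skeletal muscle, nerve and glia, and mesothelium, with 4, 3 and 1 genes above the floor on at least 1 array. At 24 h 2, 0 and 0 of these were higher and 0, 0 and 1 lower, against 8.68% and 8.04% of all genes. At 6 h 0, 0 and 1 were higher and 1, 0 and 0 lower, against 6.47% and 5.08%. Alternatives were other scalings, floors, thresholds, filters and controls.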

Additional observations from a re-analysis of the deposited data

Results flagged for a closer look

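The estradiol difference had opposite signs at the 2 times for 2 member probe sets that passed the 2-fold rule at one of them. Aqp1 had a log2 difference of -1.18 at 24 h and 0.15 at 6 h. At 6 h 36.5% of all probe sets above the floor were at least as far higher, so the sign for Aqp1 there carries little weight. Atp1b1 by rc_AI112173_at had -0.62 at 24 h and 2.55 at 6 h. With 1 array per group the difference between the times was not tested, and the labels at 6 h go against Igf1, Pgr, S100g and Hsd11b2.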

How the results depend on the processing

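Of 92 recomputed differences of member genes, 82 kept their sign and their side of the 2-fold rule, 10 did not, and 0 of the called ones changed sign. Aqp1 at 24 h lay between -1.18 and -1.04 and Atp1b1 at 6 h between 1.56 and 2.59. With the mean of its probe sets Atp1b1 at 24 h was 0.32. At a lower floor, the 20th percentile, Aqp4 at 6 h was -1.22, from signals under the floor used above, and with quantile normalization Aqp4 was 0 at both times. With a pseudocount of 50 it was -1.08 at 6 h, uncalled because no array was above the floor. The other 6 of the 10 changed sign when the floor was raised to the 60th percentile, to -0.13 at 24 h and 0.04 at 6 h, which are ratios of floors. The 2 called member probe sets at 24 h became 5 with a 1.5-fold rule, 4 with a floor at the 20th percentile, 3 with a pseudocount of 50, and 1 with a 3-fold rule, without probe sets ending in _x_at or _s_at, against the mean of both controls, where Aqp1 is the one lost, or at the 60th percentile as floor. The 2 at 6 h became 4 with a 1.5-fold rule or a floor at the 20th percentile, 3 with a pseudocount of 50, and 1 without _s_at probe sets or against the 24 h control, an alternative chosen after the data were seen. Against the 6 h control, likewise chosen, 2 were higher and 0 lower at 24 h, both of Atp1b1. The 1 between controls became 3 at the 20th percentile as floor. The 2 between the arrays labelled estradiol became 6 with a 1.5-fold rule, 3 at the 20th percentile as floor, 0 with a 3-fold rule, and 1 without _s_at probe sets, with a common median, quantile normalization or a pseudocount of 50. limma called 0 members under all 9 alternatives, with the smallest adjusted p between 0.738 and 0.99997. The limma fit pairs the arrays by time, the labels carry no replicate numbers to block on, and no array could be left out because each group has 1.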
